A study of Mus musculus with 2 samples.

Results

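The genes described here are 32 genes of mitosis, chosen as a module by name and all found by symbol in both count tables, out of 21018 genes that the tables share. They were read in marker-gated cells of newborn mouse ovary, as summed UMIs (unique molecular identifiers, 1 per captured transcript) per 10000 and gene by gene. Ovaries of C57BL pups at postnatal day 3 were profiled with the 10x Genomics 3′ single-cell assay in 2 libraries, 1 per group. In the DEHP_MLT group the mothers were gavaged with DEHP, a phthalate plasticizer, each morning and received melatonin (MLT) later the same day, from E16.5 to postnatal day 3. The MLT group differs in that DMSO replaced DEHP. Its mothers got melatonin as well, so both groups carry melatonin and a group without it was not analysed here. The study asked how melatonin acts on the ovaries of offspring exposed to DEHP through the mother. How many pups were pooled for a library was not given in the sources used here.

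The sample titles and the names of the deposited tables conflict: the table of the sample titled MLT has DEHP_MLT in its name, and the other table the reverse. Titles were followed, since the group field goes with them, and DEHP_MLT and MLT below mean the library labelled so. Should the table names be the true ones, each direction between the libraries below turns round. With 1 library per group there is no replicate spread and no test. The 95% intervals given are counting intervals (exact Poisson for levels, exact Clopper-Pearson for shares) and cover counting error only.

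Mitosis is driven by the kinase CDK1 with its cyclins, which sets off chromosome condensation and spindle assembly, while a checkpoint at the kinetochores holds the cell until all are attached to the spindle. Anaphase follows when the ubiquitin ligase APC/C marks the cyclins and securin for destruction, after which the spindle midzone and a contractile ring divide the cell. In dividing cells most of these transcripts are made from G2 onwards and vanish afterwards, whereas oocytes of the newborn mouse ovary are arrested in meiotic prophase, no longer divide, and store transcripts for later meiotic divisions.

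DEHP_MLT kept all of its 4819 barcodes, with a median depth of 13161 UMIs and 117355739 in total, and MLT kept 5199 of 5277, with a median depth of 10834 and 80657690 in total. The libraries shared 4 barcode sequences. Gating by markers gave 696 germ barcodes in DEHP_MLT and 248 in MLT, 325 and 671 granulosa, 300 and 253 surface epithelium, 2125 and 2769 stroma, 92 and 148 endothelial, and 581 and 34 erythroid barcodes. The gate cuts were set on the marker histograms, and the gates are ranges rather than sharp types: 128 DEHP_MLT and 310 MLT barcodes lay within 1.5-fold of the germ cut, 295 and 545 near the granulosa cut, 143 and 162 near the surface cut and 169 and 369 near the stroma cut. Each gate's markers were above 0 in its own class, and the other classes had at most 34.9% of that level. Gate markers and further markers of the same cell type were summed together here. The gate markers chose the barcodes, so these levels are in part set by the gating and are no independent check. Germ markers, 8 genes, were all present in the other classes, at 3.16% to 8.15% of their summed germ level in DEHP_MLT and 3.38% to 5.35% in MLT. Median depth of germ barcodes was 59014 UMIs in DEHP_MLT and 11046 UMIs in MLT. Haemoglobin made up 0.568% of stroma UMIs in DEHP_MLT and 0.045% in MLT, and 45.6% and 80.1% of erythroid UMIs. Barcodes that passed more than 1 gate, 388 in DEHP_MLT and 507 in MLT, were left out as possible doublets, and doublets within a class remain.

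Promoters of the module are shown because its genes share letters that the choice of members did not use. RefSeq promoters (GRCm38.p6, 250 bases before to 50 bases after the gene start) were found for 27 of the 32 genes; Spc24, Aurkb, Ccna2, Kif20a and Tpx2 had no entry. The letters TTTGAA, the core of the cell-cycle homology region that LIN54 binds, stood on either strand (TTTGAA or TTCAAA) in 21 of 27, or 77.8%, against 17.9% of all 32851 promoters of the same length. The letters CCAAT, bound by NF-Y, stood on either strand (CCAAT or ATTGG) in 22 of 27, or 81.5%, against 37.4% of all promoters. Both motifs were in 19 of 27, or 70.4%, against 6.95% of all, and the motifs share no stretch with each other. A match describes the letters and is no evidence of binding in these cells. The 150 bases before the start, on the strand of the gene, follow for 4 genes that lead the germ or the stroma sum below and for Cdk1, with every TTTGAA or TTCAAA and every CCAAT or ATTGG in capitals.
Ube2c, chr2:164769779-164769928, plus strand: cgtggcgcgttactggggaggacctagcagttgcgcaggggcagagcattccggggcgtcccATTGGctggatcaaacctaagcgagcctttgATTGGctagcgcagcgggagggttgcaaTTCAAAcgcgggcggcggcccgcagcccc
Birc5, chr11:117849087-117849236, plus strand: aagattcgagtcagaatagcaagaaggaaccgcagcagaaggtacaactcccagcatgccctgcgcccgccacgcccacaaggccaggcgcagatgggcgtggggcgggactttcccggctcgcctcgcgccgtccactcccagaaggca
Cdk1, chr10:69352913-69353062, minus strand: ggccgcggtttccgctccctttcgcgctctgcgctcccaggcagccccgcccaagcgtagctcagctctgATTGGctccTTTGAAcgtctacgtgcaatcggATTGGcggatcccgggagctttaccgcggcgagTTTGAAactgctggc
Top2a, chr11:99024190-99024339, minus strand: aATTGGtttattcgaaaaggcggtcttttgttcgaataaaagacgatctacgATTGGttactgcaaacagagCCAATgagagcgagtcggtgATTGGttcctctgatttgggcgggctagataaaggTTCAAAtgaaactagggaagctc
Mki67, chr7:135716380-135716529, minus strand: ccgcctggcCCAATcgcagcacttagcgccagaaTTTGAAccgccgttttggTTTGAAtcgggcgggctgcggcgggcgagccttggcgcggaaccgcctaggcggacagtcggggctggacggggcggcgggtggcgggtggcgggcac
Within these 150 bases Ube2c had 2 CCAAT matches and 1 TTTGAA match, Cdk1 had 2 and 2, Top2a had 4 and 1, and Mki67 had 1 and 2. The Birc5 stretch held neither set of letters.

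Germ cells carried the highest summed mitosis level of the classes other than erythroid in both libraries. The sum was 38.9 UMIs per 10000 in DEHP_MLT germ cells (95% interval 38.7 to 39.1) and 44.3 in MLT germ cells (43.9 to 44.7). Stroma had 21.8 in DEHP_MLT and 25.01 in MLT, endothelial cells 16.6 and 18.5, surface epithelium 11.9 and 19.5, and granulosa cells 5.33 and 5.97. Germ cells were thus 1.79-fold above stroma in DEHP_MLT (1.77 to 1.80) and 1.77-fold above it in MLT (1.75 to 1.79), and 7.29-fold and 7.42-fold above granulosa cells. Stroma was 4.08-fold above granulosa cells in DEHP_MLT and 4.19-fold above them in MLT. Erythroid barcodes stood apart, with 69.7 in DEHP_MLT and 9.91 in MLT, the second from 402 mitosis UMIs in all. Below stroma, endothelial cells came before surface epithelium in DEHP_MLT and after it in MLT. In a sum, more cells in mitosis and more mitotic RNA per cell cannot be told apart. With clusters in place of gates the germ excess over granulosa cells was 8.04-fold in DEHP_MLT and 4.46-fold in MLT. The MLT value includes a cluster of 609 MLT barcodes that was named granulosa but also held germ and stroma markers near their cuts. By gates, 111 of the 671 MLT granulosa barcodes lay in that cluster too, at 26.7 per 10000, and 1 of 325 in DEHP_MLT.

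**Figure D1:**
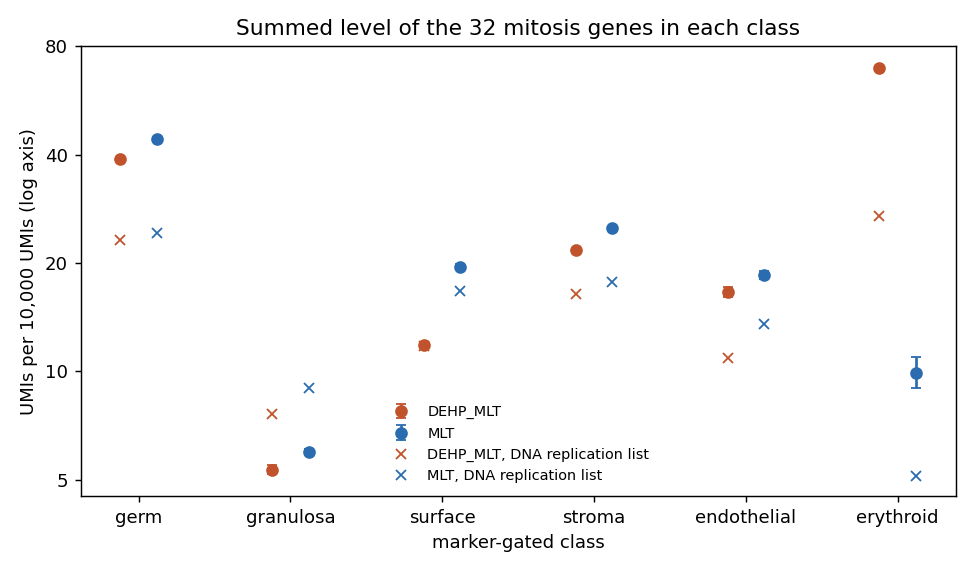
Summed UMIs of the 32 mitosis genes per 10000 UMIs (log axis, circles, with 95% Poisson counting intervals) and of 35 DNA replication genes (crosses) in each marker-gated class, DEHP_MLT left of MLT. Germ cells lie at 38.9 in DEHP_MLT and 44.3 in MLT, granulosa cells lowest among the classes other than erythroid, and the erythroid class is the one where DEHP_MLT lies above MLT.

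Per barcode, the germ and stroma sums were made in different ways. Each barcode was thinned to 2000 UMIs, and no barcode of either library was shallower. At that depth 95.4% of germ barcodes in DEHP_MLT (93.6% to 96.8%) and 94.4% in MLT (90.7% to 96.9%) held 3 or more mitosis UMIs. In stroma the share was 21.1% in DEHP_MLT (19.4% to 22.9%) and 21.2% in MLT (19.7% to 22.8%). At that cut 113 germ barcodes in DEHP_MLT and 32 in MLT, and 342 and 465 stroma barcodes, lay within 1 UMI of it. Unthinned, 100% and 97.2% of germ barcodes and 76.5% and 74.7% of stroma barcodes passed the same cut. The variance of the UMIs over barcodes was 1.41 times their mean in DEHP_MLT germ cells and 1.96 times in MLT germ cells, where pure counting would give a ratio near 1, against 15.4 and 19.9 times in stroma. Germ barcodes thus varied less than stroma barcodes. Their 10th, 50th and 90th percentiles were 25.9, 37.9 and 49.9 per 10000 in DEHP_MLT and 23.4, 44.2 and 60.8 in MLT. Stroma had a median of 3.83 in DEHP_MLT and 4.26 in MLT, below the germ 10th percentile, and a 90th percentile of 61.5 and 65.9, above the germ median.

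A small set of stroma barcodes held most of the stroma mitosis UMIs. In DEHP_MLT 246 of 2125 stroma barcodes, 11.6%, held 10 or more UMIs at the thinned depth, and these held 71.5% of the mitosis UMIs of the class. In MLT 318 of 2769 barcodes, 11.5%, did so and held 74.9%. Their mean was 21.2 mitosis UMIs per barcode in DEHP_MLT and 24.99 in MLT, against 1.11 and 1.09 in the remaining stroma barcodes. Granulosa cells had few such barcodes, 4 of 325 in DEHP_MLT and 8 of 671 in MLT, and 49.5% and 44.1% of granulosa barcodes held no mitosis UMI at all. The share of granulosa barcodes with 3 or more was 8.31% in DEHP_MLT (5.55% to 11.9%) and 15.5% in MLT (12.8% to 18.5%). In MLT 111 of the 671 barcodes came from the cluster with germ and stroma markers near their cuts, against 1 of 325 in DEHP_MLT. The part of that cluster in the share was not tested. Those granulosa barcodes with 3 to 9 mitosis UMIs also carried more germ markers, 4.57 per 10000 in DEHP_MLT and 7.34 in MLT, against 1.55 and 1.84 in granulosa barcodes with none, and their part in the share was not tested. In stroma germ markers stood at 1.20 and 1.59 per 10000 in the barcodes with 10 or more mitosis UMIs, against 1.47 and 1.60 in those with none.

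**Figure D2:**
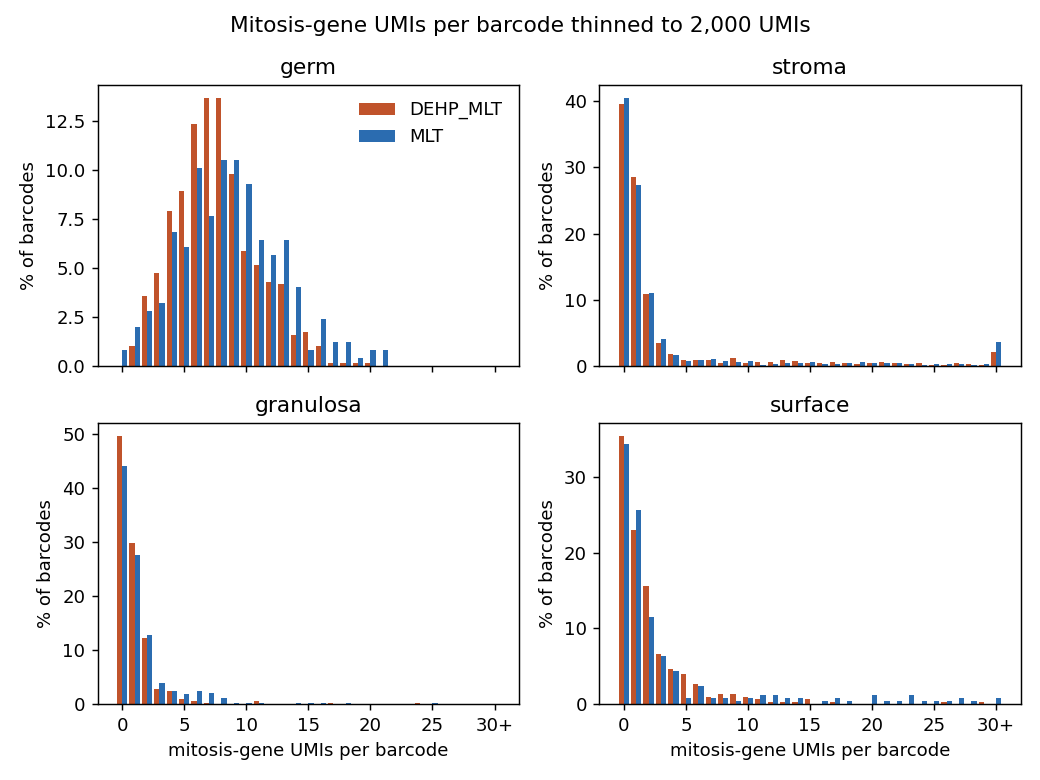
Share of barcodes (%) by the number of mitosis-gene UMIs after thinning each barcode to 2000 UMIs, for germ, stroma, granulosa and surface barcodes, DEHP_MLT left of MLT at each number. Germ barcodes form a hump around a median of 7 in DEHP_MLT and 8.5 in MLT, while stroma barcodes pile up at 0 and 1 with a long tail, 11.6% in DEHP_MLT and 11.5% in MLT at 10 or more.

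The germ sum was led by 3 genes. Ube2c, the E2 enzyme that passes ubiquitin to APC/C substrates, had 1079 CPM (the gene's UMIs per 10000 UMIs of the class, multiplied by 100) in DEHP_MLT germ cells (1070 to 1089) and 1032 in MLT germ cells (1012 to 1053), and took 27.7% and 23.3% of the module's UMIs there. Spc24, a subunit of the NDC80 complex that holds microtubules at the kinetochore, had 457 CPM in DEHP_MLT and 478 in MLT. Birc5, which encodes survivin, the subunit that brings Aurora B to the centromere, had 457 in DEHP_MLT and 504 in MLT. Together these made 51.2% of the germ sum in DEHP_MLT and 45.5% in MLT, against 19.0% and 14.8% of the stroma sum. Tags were counted at the 3′ end, so these levels need no correction for transcript length, although capture can still differ between genes. Without the 3 genes the germ sum was 1.07-fold the stroma sum in DEHP_MLT and 1.13-fold in MLT. The 3 were picked as the most abundant members in these same germ cells, so leaving them out lowers the germ side by that choice.

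Set against the stroma class as a whole, the same germ cells were low in the genes most used to mark dividing cells. Top2a, the topoisomerase that untangles sister chromatids, had 32.5 CPM in DEHP_MLT germ cells and 43.0 in MLT germ cells, and 209 and 302 in stroma. Its share of the sum was 0.835% and 0.970% in germ cells and 9.59% and 12.1% in stroma. Mki67, which encodes the Ki-67 coat protein of mitotic chromosomes, had 40.96 and 62.0 CPM in germ cells and 162 and 237 in stroma, with shares of 1.05% and 1.40% in germ cells and 7.43% and 9.47% in stroma. Against granulosa cells the sum of these 2 genes was not low. It was 73.4 CPM in DEHP_MLT and 105 in MLT germ cells, and 52.1 and 78.5 in granulosa cells. Aspm, a protein of the spindle poles, had 11.8 and 14.7 in germ cells and 38.1 and 50.3 in stroma. At the other end Ect2, the exchange factor that activates RhoA for the contractile ring, had 91.3 and 162 in germ cells and 15.5 and 23.8 in stroma. By share of the sum, Ube2c, Ect2 and Spc24 stood furthest above stroma in germ cells and Top2a, Mki67 and Aspm furthest below, the same in both libraries.

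**Figure D3:**
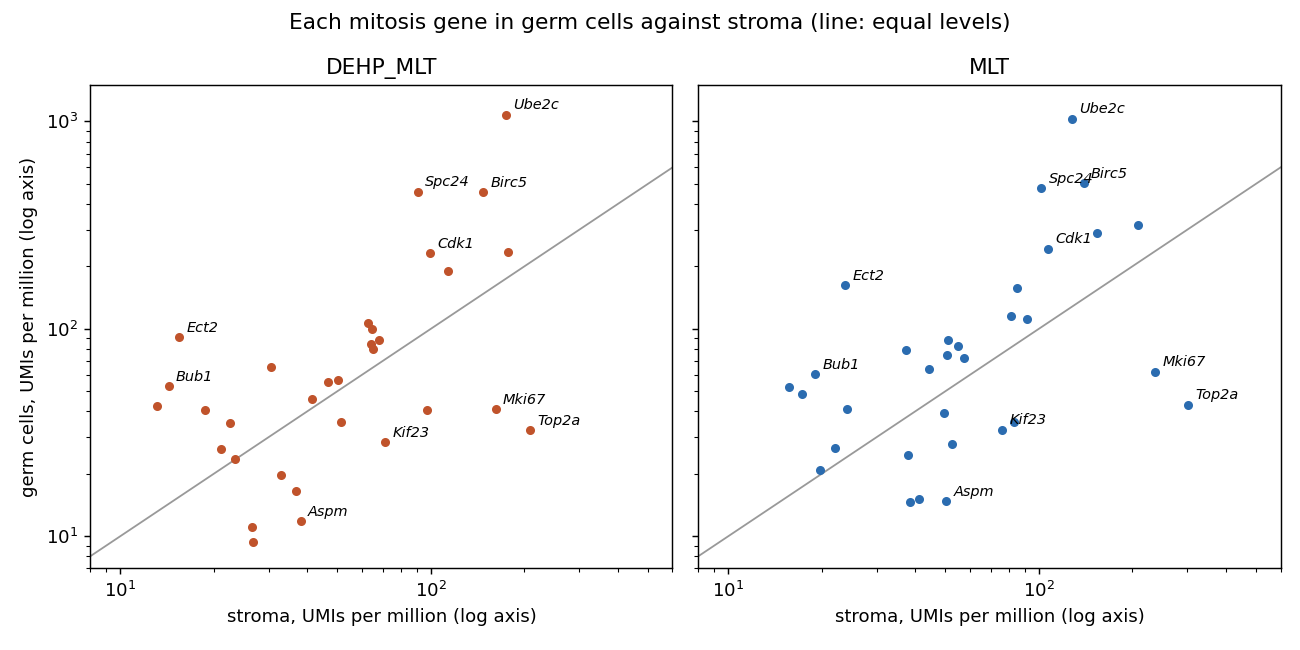
CPM of each of the 32 mitosis genes in germ cells (vertical, log axis) against stroma (horizontal, log axis), DEHP_MLT in the left panel and MLT in the right, with a line of equal levels. In both panels 22 genes lie above the line in germ cells, led by Ube2c, and 10 lie below it, Top2a furthest; Hmmr, Kif20a and Plk1 lie close to it.

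Of the 32 genes, 19 were higher and 10 lower in germ cells than in stroma with intervals apart in both libraries, and for Hmmr, Kif20a and Plk1 the intervals overlapped in 1 library or both. The same count over all genes was not made, so this split and the counts by role below only describe these genes. Stroma levels here average a small set of barcodes rich in mitosis UMIs with a majority that held few. The 264 DEHP_MLT and 312 MLT stroma barcodes of cluster 9 had sums of 99.9 and 128 per 10000. Both lie above the germ sums of 38.9 and 44.3. A gene higher in germ cells than in the stroma class need not exceed its level in those barcodes. All 4 genes of CDK1 and its cyclins were higher in CPM in germ cells than in stroma in both libraries. Cdk1, the mitotic kinase itself, had 231 in DEHP_MLT germ cells and 243 in MLT germ cells, and 99.4 and 107 in stroma. Ccnb2, a B-type cyclin, had 99.9 and 82.6 in germ cells and 64.5 and 55.0 in stroma. Ccnb1, the other B-type cyclin, had 55.4 and 63.8 in germ cells and 46.8 and 44.2 in stroma. Ccna2, the cyclin of S phase and early mitosis, had 79.5 and 88.8 in germ cells and 64.9 and 51.1 in stroma. Pseudogenes of Ccnb1 and Ccnb2 exist in the mouse annotation, so their counts are less certain than the rest.

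Of Aurka, Aurkb, Plk1 and Birc5, a group of mitotic kinases with survivin, 3 of 4 were higher in CPM in germ cells in both libraries, and Aurkb was lower. Aurka, which matures spindle poles, had 40.8 in DEHP_MLT germ cells and 48.2 in MLT germ cells, and 18.7 and 17.2 in stroma, whereas Aurkb, the centromeric kinase that survivin anchors, ran the other way, with 19.8 and 24.7 in germ cells and 32.8 and 37.8 in stroma. Plk1, the polo kinase, had 26.5 and 26.6 in germ cells and 21.1 and 22.1 in stroma, with intervals apart in DEHP_MLT and overlapping in MLT. Of the pair of APC/C genes Ube2c was higher and Cdc20, which encodes an activator of the ligase, lower in germ cells, with Cdc20 at 35.4 and 39.2 there and 51.5 and 49.5 in stroma.

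Checkpoint and kinetochore genes were higher in germ cells in 8 of 10 cases. Bub1, a checkpoint kinase, had 52.8 in DEHP_MLT germ cells and 60.3 in MLT germ cells and 14.3 and 19.1 in stroma. Ttk, the kinase that starts the checkpoint signal, had 42.5 and 52.4 in germ cells and 13.2 and 15.7 in stroma. Ndc80, Nuf2 and Spc25, partners of Spc24 in the same complex, had 65.2 and 79.0, 35.2 and 40.97, and 56.7 and 72.1 in germ cells, all below Spc24 itself. Cenpf, the fourth most abundant member in germ cells, had 236 and 317 there and 177 and 208 in stroma, and the motor gene Cenpe 106 and 158 in germ cells and 62.8 and 85.2 in stroma. The exceptions were Bub1b, the checkpoint protein BubR1, with 11.1 and 15.2 in germ cells and 26.5 and 40.96 in stroma, and Cenpa, the centromeric histone variant, with 40.8 and 35.5 in germ cells and 97.4 and 83.2 in stroma.

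Of the 5 spindle genes, Tpx2 and Nusap1 were higher in germ cells and Kif11 and Aspm lower. Tpx2, an activator of Aurora A, had 87.97 in DEHP_MLT germ cells and 115 in MLT germ cells, and 68.0 and 81.1 in stroma. Nusap1, a microtubule-binding spindle protein, had 84.7 and 111 in germ cells and 64.3 and 91.3 in stroma, and Hmmr, another, 45.7 and 74.6 in germ cells and 41.5 and 50.6 in stroma. The motor gene Kif11, which pushes spindle poles apart, was lower, with 16.48 and 27.8 in germ cells and 36.9 and 52.5 in stroma. Of the 5 genes of the midzone and cytokinesis, Prc1 and Ect2 were higher in germ cells. Prc1, the bundler of midzone microtubules, had 189 and 289 in germ cells and 113 and 154 in stroma. Kif20a, a midzone motor gene, had overlapping intervals, at 23.6 and 21.0 in germ cells and 23.4 and 19.7 in stroma. Anln, an actin-ring scaffold, had 9.36 and 14.6 in germ cells and 26.8 and 38.3 in stroma, and Kif23, which encodes another such motor, had 28.4 and 32.5 in germ cells and 71.3 and 76.2 in stroma.

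Within germ cells the module was somewhat higher in barcodes with more Zp3, an egg-coat gene switched on as oocytes begin to grow. Germ barcodes also differed by cluster, with 44.4 per 10000 in DEHP_MLT and 46.7 in MLT in cluster 0, and 32.6 and 32.8 in cluster 10. In MLT 47 lay in the mixed cluster named granulosa, at 24.5. How the Zp3 sets divide over these clusters was not tested. Barcodes with 1 Zp3 UMI were in neither set. At the thinned depth, 72 DEHP_MLT germ barcodes with 2 or more Zp3 UMIs summed to 43.3 per 10000 (39.9 to 46.8), against 36.9 (35.7 to 38.1) in 470 with none. In MLT, 37 such barcodes summed to 51.1 (46.1 to 56.5), against 41.6 (39.3 to 44.0) in 150 with none. Ube2c had 1125 CPM in the Zp3-positive and 986 in the Zp3-negative barcodes of DEHP_MLT, and 1135 and 870 in those of MLT, with overlapping intervals in both libraries. Birc5 had 632 in the Zp3-positive and 406 in the Zp3-negative barcodes of DEHP_MLT, with intervals apart, and 568 and 473 in those of MLT, with overlapping ones. Aurkb was the other gene with intervals apart in DEHP_MLT, at 41.7 and 5.32 from 6 and 5 UMIs, and in MLT no gene had them apart.

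Other cell-cycle lists were read across the same classes. DNA replication genes, 35 of 35 measured, summed to 23.2 per 10000 in DEHP_MLT germ cells and 24.2 in MLT germ cells, 16.4 and 17.7 in stroma, and 7.60 and 8.96 in granulosa cells. Mitosis over replication was thus 1.68 in DEHP_MLT and 1.83 in MLT germ cells, 1.33 and 1.41 in stroma and 0.702 and 0.666 in granulosa cells. A list of 15 cyclin D, CDK inhibitor and pocket protein genes ran the other way, with 26.3 and 31.9 in granulosa cells, 17.0 and 16.3 in stroma and 5.42 and 5.44 in germ cells. Ccnd2, a D-type cyclin, had 1463 CPM in DEHP_MLT granulosa cells and 1822 in MLT granulosa cells, against 100.1 and 102.7 in germ cells. Cdkn1b, the CDK inhibitor p27, had 291 and 552 in granulosa cells and 44.5 and 76.6 in germ cells. Germ cells were high in other mitosis genes outside the module, such as the tubulin gene Tubb4b, with 742 in DEHP_MLT and 589 in MLT, and Cks2, a subunit of CDK complexes, with 524 and 484.

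Leading genes were read in the remaining somatic classes too. Granulosa cells had Ube2c first, with 108 CPM in DEHP_MLT and 68.6 in MLT, then Birc5 with 53.1 and 54.5, Spc24 with 43.8 and 41.2 and Top2a with 33.4 and 47.9. Endothelial cells had Top2a at 126 and 209, Mki67 at 136 and 194, Ube2c at 153 and 125 and Cenpf at 147 and 129. Stroma had Top2a first in both libraries, with Cenpf at 177 in DEHP_MLT and 208 in MLT and Ube2c at 174 and 128.

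Germ markers gave the scale of germ RNA in granulosa cells. As a percentage of its germ level, the median mitosis gene stood at 15.2% in DEHP_MLT granulosa cells and 15.02% in MLT granulosa cells, and the median germ marker at 5.37% and 5.22%. The highest germ marker reached 11.5% in DEHP_MLT and 13.9% in MLT, and 7 of 32 mitosis genes in DEHP_MLT and 13 of 32 in MLT lay at or below it, Ube2c, Spc24, Cdk1 and Ect2 among those of DEHP_MLT. The part of germ RNA in the granulosa levels of those genes was not tested, and no expression is read from them. In stroma and surface epithelium none of the 32 lay at or below the highest germ marker in either library, and Ube2c stood at 16.2% and 12.4% of its germ level in stroma, against germ markers of at most 6.71% and 11.6%. In endothelial cells 0 lay there in DEHP_MLT and 1, Ect2, in MLT. In erythroid barcodes 0 of 32 did so in DEHP_MLT and 17 of 32 in MLT, where the highest germ marker reached 11.7%.

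Stroma barcodes rich in mitosis UMIs were also rich in the rest of the division programme. At the thinned depth, 448 DEHP_MLT barcodes with 3 or more mitosis UMIs were set against 839 with none, and 588 MLT barcodes against 1119. Genes outside the module that were at least 1.5-fold higher were 50 of 52 other mitosis genes in DEHP_MLT and 52 of 54 in MLT, against 12.7% and 12.0% of all genes outside the module, of which 9.46% and 8.37% were as much lower. The median log2 ratio of that list was 3.30 in DEHP_MLT and 3.29 in MLT, against 0.01 and 0.01 over all genes, and the same with genes at 0 in the second set put at a floor of 3 counts. The members picked these barcodes, so only genes outside the module are counted, and genes of 1 list move together within a cell.

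The most abundant genes of that list were H2afz, a histone variant, with 2242 CPM in the rich and 455 in the empty barcodes of DEHP_MLT and 2055 and 429 in those of MLT, and Stmn1, a microtubule destabilizer, with 1685 and 220, and 1760 and 245. Hmgb2, a chromatin protein, had 1583 and 192 in DEHP_MLT and 1590 and 172 in MLT, and the tubulin gene Tuba1b 1238 and 319, and 1175 and 345. Knl1, the kinetochore scaffold, stood at 5.29 on the log2 scale in DEHP_MLT and 5.09 in MLT. Pttg1, the securin gene, and Zwint, a kinetochore gene, had the lowest ratios and did not pass the fold, at -0.23 and -0.18, and 0.20 and 0.13. Of the DNA replication genes 30 of 33 in DEHP_MLT and 33 of 34 in MLT were higher, led in ratio by Tk1, a thymidine kinase, at 4.53 and 3.83. Pcna, the sliding clamp, had 202 in the rich and 70.9 in the empty barcodes of DEHP_MLT and 191 and 64.8 in those of MLT. Of the mitosis regulators 12 of 18 and 15 of 19 were higher, among them Fbxo5, an inhibitor of APC/C, at 3.75 and 3.59, and Wee1, the kinase that holds CDK1 inactive, at 1.62 and 1.76. Foxm1, a transcription factor of G2 genes, was at 3.82 and 3.40. Of the cyclin D and inhibitor list 4 of 12 and 5 of 13 were higher, with the inhibitor gene Cdkn2c at 3.49 and 3.73, and 1 was lower in each library, Ccnd2, at -0.79 and -0.77. None of the 4 stroma gate markers passed the fold in either direction. Their sum was 77.1 per 10000 in DEHP_MLT barcodes rich in mitosis UMIs and 72.5 in those of MLT. In barcodes with none it was 81.3 and 82.1. The same markers admitted the barcodes of both sets to the class, so these levels are in part set by the gating. They are no independent check that the rich barcodes are stroma.

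**Figure D4:**
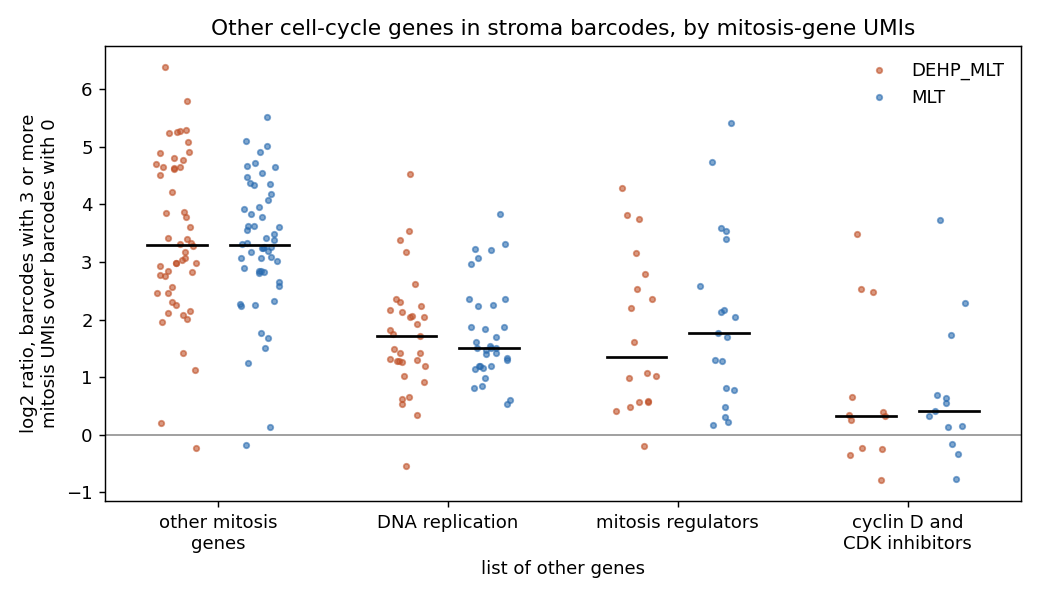
log2 ratio of (CPM + 1) of genes outside the module, stroma barcodes with 3 or more mitosis-gene UMIs over stroma barcodes with 0, at 2000 UMIs per barcode. Each point is a gene with at least 20 UMIs over both sets, bars are list medians, DEHP_MLT left of MLT; other mitosis genes have medians of 3.30 in DEHP_MLT and 3.29 in MLT.

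The make-up of the sum also changed within stroma with the number of mitosis UMIs. In stroma barcodes with 10 or more, Ube2c, Birc5 and Spc24 made up 14.6% of the mitosis UMIs in DEHP_MLT and 11.8% in MLT, and Mki67 with Top2a 18.6% and 21.6%. In stroma barcodes with 1 or 2, the 3 genes made up 40.3% and 29.3% and the pair 7.30% and 10.8%, closer to the germ make-up of 51.2% and 45.5% for the 3 genes and 1.89% and 2.37% for the pair. In stroma barcodes with 3 or more UMIs of other members Ube2c had 403 CPM in DEHP_MLT and 315 in MLT, and in those with no UMI of another member it still had 74.6 and 36.8. Top2a had 728 and 948 in the first set and 12.8 and 25.6 in the second. The part of free oocyte RNA in the low-UMI barcodes was not tested; germ markers in stroma barcodes with 1 or 2 mitosis UMIs stood at 1.40 per 10000 in DEHP_MLT and 1.87 in MLT.

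Between the libraries and with these gates, the module was lower in DEHP_MLT in every class but the erythroid one, and of these lower classes the surface sum differed most. With clusters in place of gates granulosa cells differed more than surface epithelium. Without barcodes that hold over 5% of the mitosis UMIs endothelial cells did. In germ, granulosa, stroma and endothelial cells the median over members was further from 0 than that over all genes, at -0.28 against -0.08 in germ cells, -0.32 against -0.12 in granulosa cells, -0.21 against -0.13 in stroma and -0.19 against -0.13 in endothelial cells. Without Ube2c, Birc5 and Spc24 the sums were at -0.35 in germ cells, -0.40 in granulosa cells and -0.27 in stroma. The log2 ratio of the sums, DEHP_MLT over MLT, was -0.19 in germ cells (-0.20 to -0.17), -0.16 in granulosa cells, -0.20 in stroma and -0.16 in endothelial cells. Median-ratio scaling, which takes the middle gene as unchanged, moves these classes by -0.10, -0.14, -0.16 and -0.14, so what is left relative to it is -0.09 in germ cells, -0.02 in granulosa cells, -0.04 in stroma and -0.02 in endothelial cells. With 1 library each, differences of this size cannot be told apart from differences between libraries. In surface epithelium the ratio was -0.72 (-0.75 to -0.69), or -0.62 relative to the middle gene. Of the 32 genes, 18 were lower in DEHP_MLT in germ, granulosa, surface, stroma and endothelial cells alike, and 14 with median-ratio scaling. The same count over all genes was not made, and before that scaling the median over all genes also lay below 0 in each of these classes. Only Ube2c was higher in the 4 somatic classes of these, with either scaling, though with clusters in place of gates it was at -0.40 in granulosa cells. Erythroid markers in these 4 classes stood at 1.24% to 1.59% of their erythroid level in DEHP_MLT and 0.049% to 0.11% in MLT. Germ markers stood at 5.60% and 5.35% of their germ level in granulosa cells, 8.15% and 3.41% in surface epithelium, 3.84% and 4.52% in stroma and 3.16% and 3.38% in endothelial cells. The part of erythroid or germ RNA in Ube2c was not tested. The choice of cells moved the small ratios: with clusters in place of gates granulosa cells were at -1.08 and endothelial cells at 0.09. Clusters followed the libraries in part, and 1 cluster named granulosa held 1 DEHP_MLT and 609 MLT barcodes. That cluster was mixed, with median granulosa markers at 1.10 of their gate cut, germ markers at 0.715 and stroma markers at 0.81 of theirs. Cluster-based values of MLT granulosa cells include it, and the gated values do so in part. Of the gated granulosa barcodes, 111 of 671 in MLT and 1 of 325 in DEHP_MLT lay in it. They held 2350 of the 9847 mitosis UMIs of the gated MLT class, at 26.7 per 10000. Cluster 6, the granulosa cluster that both libraries share most, had sums of 4.61 in DEHP_MLT and 5.26 in MLT. The log2 ratio there was -0.19. Without barcodes that hold MHC class II UMIs stroma was at -0.00065, and without single barcodes that hold over 5% of the mitosis UMIs endothelial cells were at -0.72.

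**Figure D5:**
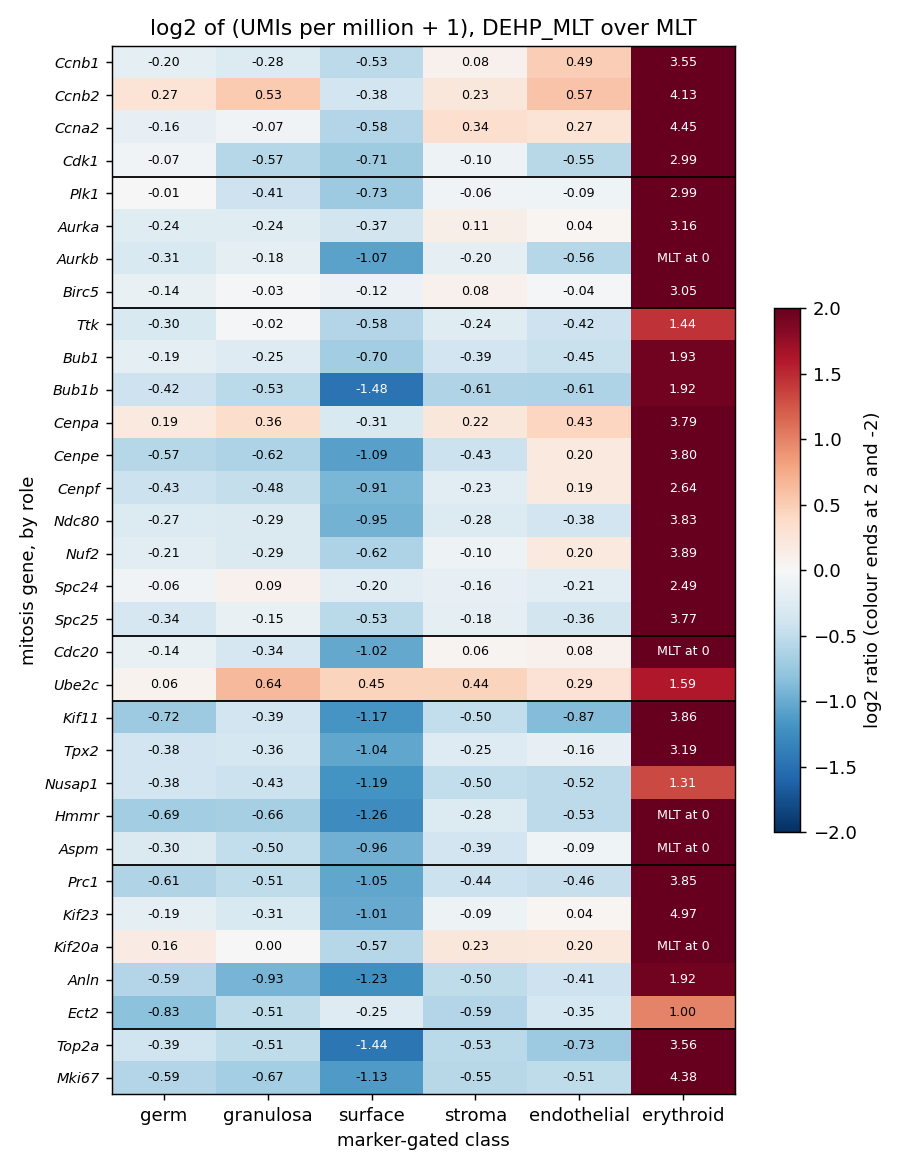
log2 ratio of (CPM + 1), DEHP_MLT over MLT, of each mitosis gene (rows, by role) in each class (columns); blue is lower and red higher in DEHP_MLT, and the colour ends at 2 and -2. Surface epithelium is the bluest column, with 20 genes at least 1.5-fold lower, and the erythroid column is red throughout; cells marked "MLT at 0" had no UMI in 34 MLT barcodes.

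With these gates surface epithelium differed most among the classes other than erythroid. Its barcodes fell into different clusters in part: cluster 4 held 232 of 300 in DEHP_MLT and 193 of 253 in MLT, and cluster 16 held 63 and 3. Over all barcodes of cluster 16, median surface markers were at 1.39 of their gate cut, granulosa markers at 0.86 and germ markers at 0.65. Within cluster 4 alone the sum was 10.4 per 10000 in DEHP_MLT and 20.4 in MLT, a log2 ratio of -0.98. Within cluster 16 the direction was the opposite, with 15.7 in DEHP_MLT and 9.30 in MLT, a log2 ratio of 0.76 (0.56 to 0.96). The MLT value there rests on 3 barcodes. Of the 32 genes 20 were at least 1.5-fold lower in DEHP_MLT and 0 higher, against 9.21% of all genes lower and 4.81% higher. The members' median log2 ratio was -0.82, against -0.09 over all genes. Bub1b had 11.7 CPM in DEHP_MLT and 34.4 in MLT (log2 ratio -1.48), Top2a 77.2 and 211 (-1.44), Hmmr 15.8 and 39.1 (-1.26), Anln 10.9 and 26.9 (-1.23) and Nusap1 26.6 and 62.0 (-1.19). Mki67 had 71.2 in DEHP_MLT and 157 in MLT (-1.13), Cenpf 106 and 200 (-0.91) and Cdk1 48.0 and 78.9 (-0.71). Birc5 and Spc24 were close, at 117 and 128 and at 63.6 and 73.4, and Ube2c was higher, at 160 in DEHP_MLT and 117 in MLT (0.45). The part of germ or erythroid RNA in that Ube2c level was not tested.

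The lists outside the module went the same way in surface epithelium. Other mitosis genes were lower in 27 of 54 cases and higher in 0, with a median of -0.58. Knl1 had 13.0 CPM in DEHP_MLT and 34.6 in MLT (-1.35), and Sgo2a, a guardian of centromeric cohesion, 11.1 and 29.4 (-1.33). The abundant H2afz, at 727 and 871 (-0.26), and Stmn1, at 535 and 665 (-0.31), did not pass the fold, nor did Cenpn and Pttg1, which had the highest ratios, at 0.26 and 0.20. DNA replication genes were lower in 16 of 35 cases and higher in 0, with a median of -0.56; Ccne2, a cyclin of S-phase entry, had 3.63 and 11.3 (-1.41) and Pola1, a polymerase subunit, 12.1 and 28.0 (-1.14). Of the mitosis regulators 5 of 21 were lower, with Fbxo5 at -0.99 and Lin9 at -0.99, and 1 was higher, Mos, from 21 and 8 UMIs (0.62). Of the cyclin D and inhibitor list 4 were lower, Rbl1 furthest at -0.997, and 1 higher, Cdkn2a, from 99 UMIs in DEHP_MLT and 20 in MLT (1.63).

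Per barcode, the surface difference lay in the barcodes richest in mitosis UMIs. At the thinned depth 13 of 300 DEHP_MLT surface barcodes, 4.33% (2.33% to 7.30%), held 10 or more mitosis UMIs, and 32 of 253 in MLT, 12.6% (8.81% to 17.4%). Those barcodes held 28.8% of the class's mitosis UMIs in DEHP_MLT and 66.8% in MLT. The remaining barcodes averaged 1.66 in DEHP_MLT and 1.36 in MLT. With 3 or more as the cut the shares were 26.0% (21.1% to 31.4%) in DEHP_MLT and 28.5% (23.0% to 34.4%) in MLT, with overlapping intervals. Germ markers in surface barcodes were at 8.15% of their germ level in DEHP_MLT and 3.41% in MLT, and leaving out somatic barcodes with 2 or more germ-gate marker UMIs per 10000 gave a surface ratio of -0.93.

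Germ barcodes were also split unevenly over clusters. Cluster 0 held 295 in DEHP_MLT and 165 in MLT, cluster 8 held 159 and 25, cluster 10 held 231 and 7, and cluster 28 held 0 and 47. The log2 ratio of the sums was -0.07 within cluster 0, -0.30 within cluster 8 and -0.01 within cluster 10. Over the whole class, 6 of 32 genes in germ cells were at least 1.5-fold lower in DEHP_MLT and 0 higher, against 5.5% of all genes lower and 2.48% higher. Ect2 had 91.3 CPM in DEHP_MLT and 162 in MLT (log2 ratio -0.83), Kif11 16.48 and 27.8 (-0.72), Hmmr 45.7 and 74.6 (-0.69), Prc1 189 and 289 (-0.61), Anln 9.36 and 14.6 (-0.59) and Mki67 40.96 and 62.0 (-0.59). The median over the members was -0.28, against -0.08 over all genes. With median-ratio scaling 3 genes passed the fold, and the share over all genes at that scaling is not given here. Outside the module 3 of 54 other mitosis genes were lower, Knl1 furthest at -0.92 and then Psrc1 at -0.72, and 0 were higher. Among replication genes 1 of 35 was lower, Pola1 at -0.62, and 0 of 24 regulators passed the fold. Of the cyclin D and inhibitor list Cdk4 was higher (0.62) and Cdkn1b lower (-0.77).

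In granulosa cells 4 genes were lower and 1 higher in DEHP_MLT, against 8.57% of all genes lower and 1.61% higher. The lower ones were Anln (3.01 CPM in DEHP_MLT and 6.67 in MLT), Mki67 (18.8 and 30.6), Hmmr (5.42 and 9.16) and Cenpe (12.9 and 20.3), and the higher one was Ube2c, with 108 in DEHP_MLT and 68.6 in MLT (log2 ratio 0.64). Ube2c lay within the range of germ markers in both libraries there, as Hmmr and Cenpe did in MLT. In stroma 2 genes were lower and 0 higher, against 8.86% and 1.27% of all genes: Bub1b, with 26.5 in DEHP_MLT and 40.96 in MLT (-0.61), and Ect2, with 15.5 and 23.8 (-0.59). In endothelial cells 3 were lower and 0 higher, against 14.2% and 3.95% of all genes; Kif11, with 19.8 and 36.9 (-0.87), and Top2a, with 126 and 209 (-0.73), had intervals apart, and Bub1b (-0.61) did not. Counts in stroma and endothelial cells lay below or near the share over all genes.

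Erythroid barcodes were the exception in direction, but the class held different cells in the 2 libraries, and the direction turned within the cluster that both share. Of 581 DEHP_MLT barcodes 257 lay in cluster 1 and 288 in cluster 3, each with 1 of the 34 MLT barcodes, while cluster 7 held 28 in DEHP_MLT and 30 in MLT. Within cluster 7 the sum was 5.70 per 10000 in DEHP_MLT and 7.46 in MLT, a log2 ratio of -0.39 (-0.65 to -0.12), with haemoglobin at 77.8% and 83.2% of UMIs. In DEHP_MLT cluster 1 had 123 and cluster 3 had 10.5 mitosis UMIs per 10000. The values of the whole class that follow therefore set different mixtures side by side. The sum was 69.7 per 10000 in DEHP_MLT and 9.91 in MLT, a log2 ratio of 2.81 (2.67 to 2.96). Haemoglobin took 45.6% of the class's UMIs in DEHP_MLT and 80.1% in MLT; with it left out of the totals the sums were 128 and 49.9, a log2 ratio of 1.36. A single MLT barcode held 17.9% of the 402 mitosis UMIs, and without barcodes that hold over 5% of them the ratio was 3.85. Over the whole class all 32 genes were at least 1.5-fold higher in DEHP_MLT, but so were 69.4% of all genes, with 6.29% lower, and the members' median was 3.67, against 1.28 over all genes.

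Mki67 had 840 CPM in DEHP_MLT erythroid barcodes, from 5447 UMIs, and 39.4 in MLT, from 16. For 17 of the 32 genes the MLT level lay within the range of germ markers, Prc1 among those named here, and no expression is read from it. Ube2c had 1364 and 451, Birc5 558 and 66.5, Top2a 447 and 37.0, Prc1 262 and 17.2, Nusap1 252 and 101, and Cenpa 320 and 22.2. Aurkb, Cdc20, Hmmr, Aspm and Kif20a had 0 UMIs in MLT, and against a floor of 3 counts over the class they were at least 11.2-fold, 17.9-fold, 17.6-fold, 6.78-fold and 4.88-fold higher in DEHP_MLT. With those 5 at their bound the members' median was 3.34.

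Within DEHP_MLT the erythroid class was itself mixed. At the thinned depth 232 of 581 barcodes held 10 or more mitosis UMIs and 66 held none, and haemoglobin made up 33.8% of the UMIs in the first set and 67.6% in the second. Replication genes summed to 42.5 per 10000 in the first set and 1.52 in the second. In barcodes with no UMI of any other member Ube2c still had 436 CPM, and Top2a 7.46 there. None of the 34 MLT erythroid barcodes held 10 or more, which allows a share of up to 10.3% by the exact interval.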

How the data were processed

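Each library's deposited table holds whole-number UMI counts per gene and barcode, and the authors made it with Cell Ranger and Seurat 4.2.0 against mm9, per the submitters' processing notes; the version of Cell Ranger was not given in the sources used here. The 2 tables held 0 value columns that were left unused. Kept barcodes had 500 genes or more, with mitochondrial UMIs at no more than 20%. A class took barcodes whose summed gate markers reached 6 (germ), 5 (granulosa), 3 (surface), 25 (stroma), 3 (endothelial) or 500 (erythroid) UMIs per 10000, cuts set on the histograms of the markers. Barcodes in more than 1 gate, including check gates for perivascular (8) and immune (10) cells, were left out, and no doublet caller was run. The 32 genes and the other gene lists were chosen with earlier results of these data known.

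Levels are UMIs of a gene over all UMIs of a class. Ratios are log2 of (CPM + 1), DEHP_MLT over MLT, and a gene was called at 1.5-fold with at least 20 UMIs over both libraries; the same rule over all such genes gave the background. Shares of barcodes were taken after thinning to 2000 UMIs with a fixed seed of 11, and a floor of 3 counts stood in for 0. Genes named are the 4 most abundant members of each class, those with the 3 highest and 3 lowest shares in germ cells over stroma, members past the fold with intervals apart, and, of other lists, the 4 most abundant and the 2 highest and 2 lowest ratios, given for stroma, surface and germ cells only; a highest ratio against 3 or fewer UMIs was left out. The remaining members are given by role, and Knl1, Wee1, Foxm1, Pcna, Cks2 and Ccnd2 were in part chosen after their values were seen. With 1 library per group no p-value was computed. Alternatives were clusters, gates, UMI floor, weights, scaling, pseudocount, filters and thinning. Code for intervals, folds and thinning was tested on simulated data. Tools were Python 3.11.15 with numpy 2.4.6, scipy 1.17.1, pandas 2.3.3, scikit-learn 1.9.0, igraph 0.11.9 and matplotlib 3.10.9. No mm9 genome was used; promoters are RefSeq's on GRCm38.p6, matched by symbol.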

Additional observations from a re-analysis of the deposited data

Results flagged for a closer look

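Barcodes outside the 6 classes also carried the module. Perivascular barcodes had 26.3 mitosis UMIs per 10000 in DEHP_MLT (82 barcodes) and 22.6 in MLT (81), above granulosa cells in both libraries. Immune barcodes had 19.3 in DEHP_MLT (66) and 11.8 in MLT (144). Barcodes that passed more than 1 gate had 19.6 in DEHP_MLT (388) and 24.0 in MLT (507), and barcodes that passed none had 18.8 in DEHP_MLT (164) and 9.02 in MLT (344). All are far above the level that 3 counts would give, and no comparison of the report uses them.

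The erythroid class went against the others in direction, with a log2 ratio of 2.81 where the other 5 classes lay below 0, but within the cluster most shared by both libraries the ratio was -0.39. That difference between classes was not tested, since each group has 1 library.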

How the results depend on the processing

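The surface and germ sums stayed below 0 on the log2 scale, DEHP_MLT over MLT, in each alternative that could be run for them, and the erythroid sum above 0 in each but 1, which turned it to -0.39. The granulosa, stroma and endothelial ratios did not keep their size, and the cause was not tested unless a value below shows it. Clusters in place of gates gave log2 ratios of -0.23 in germ cells, -1.08 in granulosa cells, -0.66 in surface epithelium and 0.093 in endothelial cells, where the direction turned, as it did for Ube2c in granulosa cells at -0.40. The granulosa values by cluster include the mixed cluster of 609 MLT barcodes, and the gated MLT granulosa class holds 111 barcodes of it. Keeping barcodes of 2 gates gave -0.10 in granulosa cells, -0.78 in surface epithelium, -0.069 in endothelial cells and 2.24 in erythroid barcodes. A common floor of 6923 UMIs gave -0.089 in granulosa cells and -0.22 in stroma. Equal weight per cell gave -0.57 in granulosa and -0.49 in endothelial cells. Leaving out barcodes with MHC class II UMIs gave -0.24 in germ cells, -0.26 in granulosa cells, -0.49 in surface epithelium, -0.00065 in stroma, -0.41 in endothelial cells and 2.25 in erythroid barcodes. Median-ratio scaling gave -0.091 in germ cells, -0.024 in granulosa cells, -0.62 in surface epithelium, -0.042 in stroma, -0.019 in endothelial cells and 1.72 in erythroid barcodes. Leaving haemoglobin out of the totals gave 1.36 in erythroid barcodes.

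Chosen after seeing the data were the next 5 alternatives. Gated barcodes of the cluster that both libraries share most gave -0.074 in germ cells, -0.98 in surface epithelium, -0.17 in stroma, -0.24 in endothelial cells and -0.39 in erythroid barcodes. Doubled gate cuts gave -0.21 in germ cells, -0.31 in granulosa cells, -0.86 in surface epithelium, -0.032 in endothelial cells and 2.64 in erythroid barcodes. Leaving out somatic barcodes with germ markers gave -0.93 in surface epithelium and -0.18 in stroma. Without Ube2c, Birc5 and Spc24 the ratios were -0.35 in germ cells, -0.40 in granulosa cells, -0.95 in surface epithelium, -0.27 in stroma and 3.45 in erythroid barcodes. Without barcodes that hold over 5% of the mitosis UMIs they were -0.25 in granulosa cells, -0.65 in surface epithelium, -0.72 in endothelial cells and 3.85 in erythroid barcodes.

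Germ over stroma in DEHP_MLT was 1.76-fold with barcodes of 2 gates, 2.21-fold with equal weights, 1.83-fold with doubled cuts, 1.73-fold without barcodes with germ markers and 1.07-fold without Ube2c, Birc5 and Spc24. In MLT it was 1.80-fold with clusters, 1.75-fold with the UMI floor, 2.20-fold with equal weights, 2.10-fold without MHC class II barcodes, 1.85-fold with doubled cuts, 1.74-fold without barcodes with germ markers and 1.13-fold without the 3 genes. Germ over granulosa in DEHP_MLT was 8.04-fold with clusters, 6.05-fold with barcodes of 2 gates, 7.67-fold with equal weights, 8.80-fold without MHC class II barcodes, 7.56-fold with doubled cuts, 8.73-fold without barcodes with germ markers and 5.77-fold without the 3 genes. In MLT it was 4.46-fold, 6.47-fold, 5.89-fold, 8.68-fold, 7.04-fold, 9.05-fold and 5.58-fold under the same settings, and 7.82-fold with the UMI floor.

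Counts of genes past the fold moved as follows. Median-ratio scaling gave 3 lower in germ cells, 2 higher and 1 lower in granulosa cells, 1 higher and 0 lower in stroma and 2 higher in endothelial cells. The UMI floor gave 2 higher and 2 lower in granulosa cells and 1 lower in stroma. Clusters gave 0 higher and 28 lower in granulosa cells, 1 higher in surface epithelium, 1 lower in stroma, and 3 higher and 0 lower in endothelial cells. A pseudocount of 0.1 CPM and no filter on low counts left each of the 12 counts within 1.5 times.

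The share of barcodes with 3 or more mitosis UMIs at 4000 UMIs was 99.6% in DEHP_MLT and 100% in MLT for germ cells, 20.6% and 25.6% for granulosa cells and 33.8% and 35.1% for stroma. Without thinning it was 100% and 97.2%, 84.6% and 83.5%, and 76.5% and 74.7%. With 5 or more as the cut at 2000 UMIs it was 82.8% and 84.3%, 3.08% and 9.09%, and 15.8% and 15.5%. No paired analysis was possible because each group has 1 library. Depth limits the MLT erythroid class most, with 402 mitosis UMIs.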
